A study of Homo sapiens with 4 samples.

Results

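The 9 genes of plasminogen activation and blood coagulation described here were read on 4 Affymetrix arrays of Panc1 cells, a human pancreatic carcinoma cell line. The arrays held RNA of cells given romidepsin plus tamoxifen (Combo), romidepsin (Rom) or tamoxifen (Tam) for 24 hours and of untreated cells (Untreated), with 1 array per group. Romidepsin inhibits histone deacetylases, which take acetyl groups off histones, and tamoxifen binds and modulates estrogen receptors. Doses and any vehicle are not stated in the labels, all groups were of 1 cell line, and no replicate exists, so no p-value is given and precision is limited by the number of arrays.

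The genes were those of a list: PLAU, PLAUR, PLAT, SERPINE2, SERPINB2, F3, TFPI, TFPI2 and THBD. Probe sets annotated to 1 of these genes alone were taken, and 8 of the 9 genes had such probe sets, 19 of 41097 that name 1 gene; they were 8 of 19775 genes. SERPINB2, which encodes an inhibitor of urokinase, was not analysed here. The list was selected on the signals of these same arrays, among them the low PLAU signal with romidepsin, so the values below describe the arrays and support nothing about the choice.

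Plasminogen circulates as an inactive precursor and is cut to plasmin, a protease that dissolves fibrin and degrades matrix, by urokinase (PLAU) or tissue-type plasminogen activator (PLAT). Urokinase acts at the cell surface when bound to its receptor (PLAUR), and serpins such as protease nexin-1 (SERPINE2) block the activators. Coagulation starts when tissue factor (F3), a cell-surface receptor, binds factor VII. TFPI inhibits that complex, and thrombomodulin (THBD) turns thrombin towards activating protein C. Urokinase and tissue factor are both well known from pancreatic cancer, in which they have been studied for invasion and for thrombosis.

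RefSeq promoter windows (GRCh38.p14) were on hand for 6 of the 8 genes. The 250 bases before the transcription start of 3 genes that fell with romidepsin and of F3, which rose, are shown so that their letters can be compared. Each is written 5′ to 3′ in the direction of transcription, and capitals mark matches to the AP-1 motif TGANTCA on either strand, the motif bound by FOS and JUN proteins.
PLAU, first start (chr10:73910360-73910609, plus strand): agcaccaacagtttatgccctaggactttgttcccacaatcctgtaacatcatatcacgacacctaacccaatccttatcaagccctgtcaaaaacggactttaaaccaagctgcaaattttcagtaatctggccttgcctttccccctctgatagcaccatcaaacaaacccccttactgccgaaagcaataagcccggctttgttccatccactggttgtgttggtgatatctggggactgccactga
PLAU, second start (chr10:73910882-73911131, plus strand): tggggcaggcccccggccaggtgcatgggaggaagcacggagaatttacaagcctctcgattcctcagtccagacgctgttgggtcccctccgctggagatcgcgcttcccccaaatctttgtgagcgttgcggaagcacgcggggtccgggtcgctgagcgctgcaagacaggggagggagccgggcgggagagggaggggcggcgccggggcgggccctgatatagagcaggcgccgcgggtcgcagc
PLAUR (chr19:43670170-43670419, minus strand): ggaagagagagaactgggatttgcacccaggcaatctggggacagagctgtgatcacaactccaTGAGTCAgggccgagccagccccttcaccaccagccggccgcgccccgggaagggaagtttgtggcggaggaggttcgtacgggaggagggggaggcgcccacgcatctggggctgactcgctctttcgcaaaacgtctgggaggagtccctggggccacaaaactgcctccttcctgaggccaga
TFPI (chr2:187554436-187554685, minus strand): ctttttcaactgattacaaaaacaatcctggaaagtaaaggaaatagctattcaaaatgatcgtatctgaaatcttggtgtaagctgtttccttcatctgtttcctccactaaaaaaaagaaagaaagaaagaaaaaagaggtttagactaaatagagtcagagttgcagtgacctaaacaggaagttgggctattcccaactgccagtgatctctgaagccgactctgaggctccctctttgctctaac
F3 (chr1:94541760-94542009, minus strand): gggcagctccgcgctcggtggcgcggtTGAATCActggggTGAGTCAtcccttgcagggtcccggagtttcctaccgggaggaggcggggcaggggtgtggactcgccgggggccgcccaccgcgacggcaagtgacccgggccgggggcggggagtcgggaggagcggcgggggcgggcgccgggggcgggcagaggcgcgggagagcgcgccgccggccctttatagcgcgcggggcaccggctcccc
Such a match was present in 6.57% of 35116 RefSeq windows of this length. F3 held TGAATCA at positions -223 to -217 and TGAGTCA at -210 to -204, counted back from the start. PLAUR held TGAGTCA at -186 to -180, and TFPI2 held TGAATCA at -87 to -81. Neither window of PLAU, the TFPI window nor either window of SERPINE2 held a match. The annotated PLAU and SERPINE2 genes begin further upstream than the starts of these windows, and no window at those outermost ends was on hand. The match was thus found in a gene whose signal was lower with romidepsin, in one whose signal was higher and in one that stayed below the floor. The GC box, GGGCGG, was found in 42.6% of all windows. It occurred in the windows of F3, SERPINE2 and TFPI2 and at the second start of PLAU, where 3 copies lay between -66 and -35, but not in those of PLAUR and TFPI. The NF-kappaB letters GGGANTTCC, present in 1.59% of windows, occurred in TFPI2 alone among these genes. TATAAA, present in 10.7%, was matched in F3 alone, on the opposite strand, and is printed there as TTTATA (-28 to -23). All motifs were searched on both strands, so GGGCGG also counts where CCGCCC is printed. TGACGTCA (1.65% of windows) and the ETS letters CCGGAAG (8.52%) had no match in any of the 8 windows of these genes. The known AP-1 and ETS enhancer of PLAU lies further upstream than these windows reach.

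Values are MAS5 signals on a linear scale as deposited. A floor of 66.4 was used, the median signal over the non-control probe sets of the 4 arrays. Lower signals were treated as having no order and were raised to it before folds were taken. A fold against a group at the floor is therefore a lower bound, written "at least". Rose and fell are written of differences of 2-fold or more between 2 arrays, and smaller differences are given as values. A gene with several probe sets is represented by the brightest one, and the other probe sets are given beside it. Where a gene had at least 2 readable probe sets, the log2 folds of the first 2 lay a median of 0.25 to 0.33 apart in the 5 comparisons. That is spread between probe sets and leaves out variation between cultures. Members could differ by more: for Rom over Untreated PLAUR had -1.43 and -0.60, while PLAU had -4.98 and -5.19.

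The actin control compares probe sets at the 3′ and 5′ ends of a transcript and so reports on intact RNA. It had a ratio of 1.73 on the Combo array and of 1.18 to 1.39 on the other arrays. The GAPDH control of the same kind had a ratio of 1.07 on the Combo array, 1.03 on Rom, 1.04 on Tam and 1.07 on Untreated. Relative to the Untreated array, spike-in controls added at hybridization read 0.83 on the Combo array, 1.01 on the Rom array and 0.78 on the Tam array. Scaling to these controls moved the median log2 fold of all genes to 0.34 for Tam and for Combo over Untreated and to 0.27 for Combo over Rom, from 0.01, 0.09 and -0.03. The keratins KRT8 and KRT18 of simple epithelium were bright on all 4 arrays (4153 to 10766 and 11344 to 25361), while KRT19, a duct keratin, was below the floor on all 4. Of the 8 epithelial markers 7 were above the floor on the Combo, Rom and Tam arrays and 6 on the Untreated array. Their summed signals were 17747 in Combo, 33949 in Rom and 30348 in Tam cells, against 44876 in untreated cells. KRT80 was at 547 in Combo against 8979 in untreated cells and KRT7 at 202 against 779.8, while CDH1 was at 874 against 223 and EPCAM at 475 with untreated cells below the floor. Tissue factor, TFPI and thrombomodulin are also endothelial products. Of 6 endothelial markers, 3 were above the floor on the Combo and Rom arrays and 1 on the Tam and Untreated arrays. Their summed signals were 564.6, 627, 287 and 214 for Combo, Rom, Tam and Untreated. KDR had 290.5 in Combo and 328 in Rom cells and VWF 73.5 and 98.3, both with Tam and untreated cells below the floor. PECAM1 lay between 110.0 and 136 on the 4 arrays, and CDH5, TEK and ERG were below the floor on all of them. Of 4 leukocyte markers, CSF1R was above the floor, at 485 in Combo and 314 in Rom cells, and PTPRC was below it on all 4 arrays. The part of these controls and markers in the values below was not tested.

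Among the 8 genes, 7 had a signal above the floor on at least 1 array and 4 on all arrays. Of the 19 probe sets, 15 exceeded it on at least 1 array and 4 on none. With romidepsin PLAU, PLAUR and TFPI fell and SERPINE2 and F3 rose, and with the combination THBD fell as well. By the brightest probe set of each gene, none of the 6 genes measured was called with tamoxifen alone. For F3 that value was a lower bound, at least 1.64-fold higher, so its full size is not known. In bulk RNA, fewer cells that express a gene and less RNA per cell cannot be told apart.

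**Figure D1:**
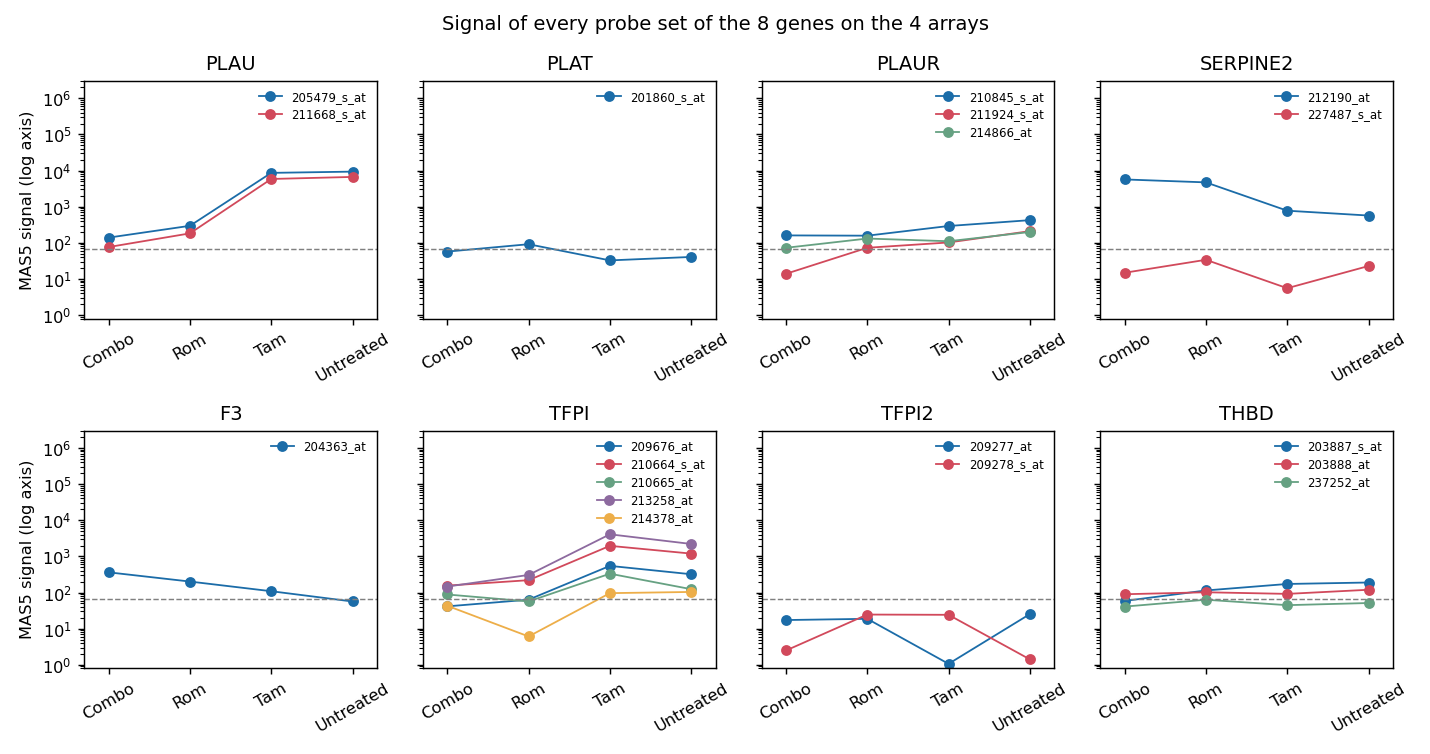
MAS5 signal (log axis) of each probe set of the 8 genes on the Combo, Rom, Tam and Untreated arrays; lines join the 4 values of 1 probe set and the dashed line is the floor of 66.4. PLAU and TFPI are low on the Combo and Rom arrays, SERPINE2 212190_at and F3 are high there, and both TFPI2 probe sets stay below the floor.

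PLAU, the urokinase gene on chromosome 10, had signals of 139 in Combo cells, 296 in Rom cells and 8626 in Tam cells, against 9337 in untreated cells (205479_s_at). Its other probe set, 211668_s_at, read 76.4 in Combo, 183 in Rom and 5844 in Tam cells, against 6665 in untreated cells. Both probe sets ordered the arrays in the same way, with a wide gap between the 2 arrays that had romidepsin and the 2 that did not. PLAU was 31.6-fold lower in Rom than in untreated cells by the first probe set and 36.5-fold lower by the second. For Combo over Untreated the falls were 67.0-fold and 87.3-fold. Tamoxifen alone left the signal within 1.08-fold and 1.14-fold of the untreated level. Added to romidepsin, tamoxifen went with a further fall of 2.12-fold and 2.39-fold, down to signals close to the floor. Scaled to the spike-in controls, the first of these values was a log2 fold of -0.76, below the 2-fold threshold.

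PLAUR, which encodes the receptor that holds urokinase on the cell surface, also fell with romidepsin, but by less and less evenly. By its brightest probe set, 210845_s_at, the signal was 161 in Combo, 158 in Rom and 292 in Tam cells, against 424 in untreated cells. That is 2.64-fold lower in Combo and 2.69-fold lower in Rom than in untreated cells, with Tam 1.45-fold lower. Probe set 211924_s_at read 72.9 in Rom and 102 in Tam cells, against 210.5 in untreated cells, and was below the floor in Combo cells. By that probe set Combo was at least 3.17-fold, Rom 2.89-fold and Tam 2.06-fold lower than untreated cells. Probe set 214866_at gave 72.9 in Combo, 131 in Rom and 111 in Tam cells, against 199 in untreated cells, so that Combo was 2.73-fold, Rom 1.52-fold and Tam 1.80-fold lower. All 3 probe sets put every treated array below the untreated one. They disagreed on whether the Rom or the Tam array was the lower, and on whether Combo differed from Rom (log2 folds of 0.03, at most -0.14 and -0.85).

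PLAT, the gene of tissue-type plasminogen activator on chromosome 8, had 1 probe set and stayed near or below the floor. Its signal was 57.2 in Combo, 91.5 in Rom and 32.6 in Tam cells, against 40.7 in untreated cells, so that only the Rom array exceeded the floor. It was at least 1.38-fold higher in Rom than in untreated cells, and this lower bound did not reach the threshold. With the floor at the 25th percentile it reached a log2 fold of 1.17, and PLAT was then called higher.

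SERPINE2 encodes protease nexin-1, a serpin that inhibits thrombin, urokinase and tissue-type plasminogen activator. Its signal was 5677 in Combo, 4708 in Rom and 775 in Tam cells, against 569 in untreated cells (212190_at). The 2 arrays with romidepsin stood far above the others. SERPINE2 was 9.98-fold higher in Combo and 8.28-fold higher in Rom than in untreated cells, and 7.33-fold higher in Combo than in Tam cells. Tam over untreated (1.36-fold) and Combo over Rom (1.21-fold) were small. The second probe set, 227487_s_at, lay between 5.55 and 33.9 and below the floor on all 4 arrays, so the rise rests on 1 probe set.

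F3, which encodes tissue factor, was the other gene that rose. It had 1 probe set, with signals of 362 in Combo, 201 in Rom and 109 in Tam cells, while untreated cells were below the floor at 56.5. The order of the arrays was Combo, Rom, Tam, Untreated, and Combo and Rom, like Rom and Tam, lay less than 2-fold apart. Over untreated cells Combo was at least 5.46-fold, Rom at least 3.03-fold and Tam at least 1.64-fold higher. Combo was 1.80-fold higher than Rom and 3.33-fold higher than Tam. Under spike-in scaling the Combo over Rom value became a log2 fold of 1.17, past the 2-fold threshold. The floor at the 75th percentile left F3 unmeasured.

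TFPI, the inhibitor of the tissue factor and factor VIIa complex, was the gene with the most probe sets, 5 in all. The brightest, 213258_at, read 146 in Combo, 307 in Rom and 4083 in Tam cells, against 2207 in untreated cells. TFPI was 15.1-fold lower in Combo and 7.20-fold lower in Rom than in untreated cells, and 27.9-fold lower in Combo than in Tam cells. In Tam cells it was 1.85-fold higher than in untreated cells, short of the threshold as deposited; with spike-in scaling the log2 fold was 1.25, a call.

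The next brightest, 210664_s_at, read 155 in Combo, 219.6 in Rom and 1959 in Tam cells, against 1194 in untreated cells. By this probe set Combo was 7.68-fold and Rom 5.44-fold lower, and Tam 1.64-fold higher, than untreated cells. Probe set 209676_at was below the floor in Combo and Rom cells and read 546 in Tam against 321 in untreated cells. The dimmer 210665_at gave 88.2 in Combo and 332 in Tam against 124 in untreated cells, with Rom below the floor. The last, 214378_at, was above the floor only in Tam and untreated cells, at 96.1 and 104. All 5 probe sets were lower on the Combo and Rom arrays than on the Tam and Untreated arrays. Tam was above Untreated by 1.64-fold to 2.68-fold in 4 of them and 1.08-fold below it in 214378_at.

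TFPI2, a related Kunitz-type inhibitor of plasmin, had 2 probe sets with signals from 1.06 to 25.3, all below the floor. No fold is given for it.

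THBD encodes thrombomodulin, a membrane receptor of thrombin. Probe set 203887_s_at read 58.5, below the floor, in Combo cells, 114 in Rom and 173 in Tam cells, against 189 in untreated cells. Combo was at least 2.85-fold lower and Rom 1.66-fold lower than untreated cells. Probe set 203888_at did not show this, with 89.7 in Combo, 102 in Rom and 91.7 in Tam cells against 119 in untreated cells, at most 1.33-fold apart from the untreated value. The third, 237252_at, was below the floor on all 4 arrays. The fall of THBD was thus seen by 1 of the 2 probe sets that could be read.

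**Figure D2:**
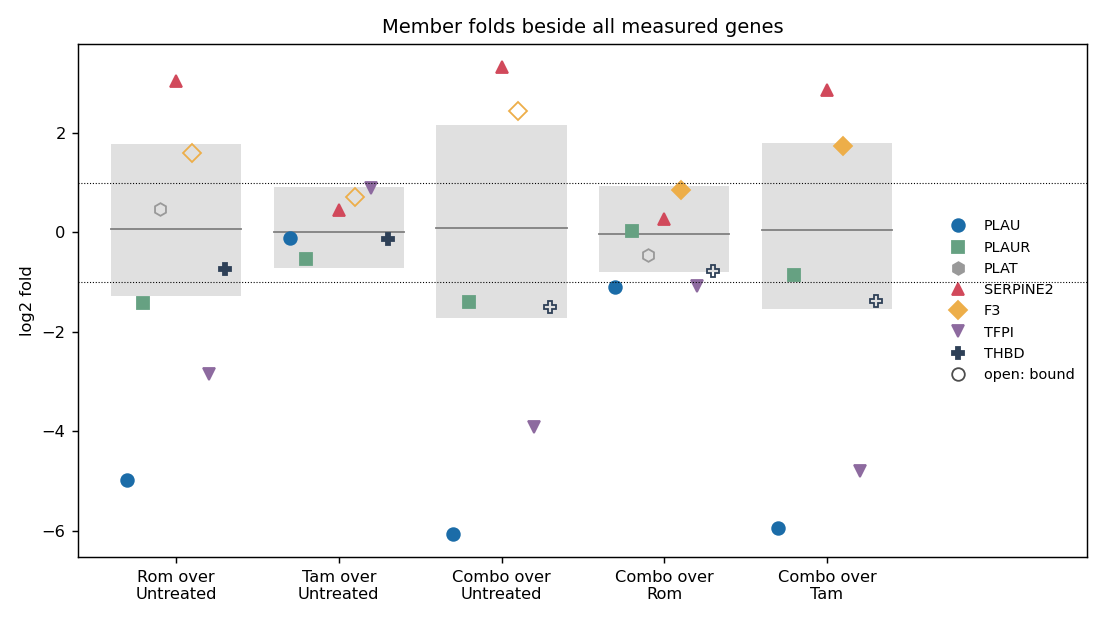
Log2 fold of the brightest probe set of each gene in the 5 comparisons. Grey bars span the 5th to 95th percentile of all measured genes with a line at their median, dotted lines mark 2-fold, and open symbols are bounds against the floor. PLAU and TFPI lie below the bar in the 3 comparisons that add romidepsin and in Combo over Rom, and SERPINE2 lies above it in those 3.

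Counted over the genes, 7 were measured for Rom over Untreated. Of these 2 rose and 3 fell, where 14.3% of all 13619 measured genes rose and 9.27% fell. For Combo over Untreated 6 were measured, 2 rose and 4 fell, where 19.8% of 13802 genes rose and 14.4% fell. For Combo over Tam 6 were measured, 2 rose and 3 fell, where 14.8% of 13893 genes rose and 11.8% fell; PLAUR was 1.82-fold lower there and was called lower with arrays centred on their medians or quantile normalized. For Tam over Untreated 0 of 6 rose or fell, where 3.70% of 13051 genes rose and 1.07% fell. For Combo over Rom 0 of 7 rose and 2 fell, PLAU and TFPI, where 4.07% of 13726 genes rose and 2.27% fell. Spike-in scaling ended both calls, with log2 folds of -0.76 for PLAU and -0.75 for TFPI, and called F3 higher; rises were then 94.0% of all calls, against 64.2% as deposited. Nothing is read from these counts, since the list was made with the folds known. The median log2 fold of the measured members was -0.73 for Rom over Untreated, against 0.06 over all measured genes. It was -1.46 against 0.09 for Combo over Untreated, -1.12 against 0.05 for Combo over Tam, -0.46 against -0.03 for Combo over Rom and 0.17 against 0.01 for Tam over Untreated.

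Rom over Untreated and Combo over Tam share no array, and each gives the change with romidepsin, the second in the presence of tamoxifen. PLAU had log2 folds of -5.95 for Combo over Tam and -4.98 for Rom over Untreated. SERPINE2 had 2.87 and 3.05 in the same 2 comparisons, and PLAUR -0.86 and -1.43. TFPI had -4.80 with tamoxifen present and -2.85 without it, the widest gap among the members that could be read on all 4 arrays.

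The change with tamoxifen was read in the same way from Combo over Rom and Tam over Untreated. TFPI had log2 folds of -1.07 with romidepsin present and 0.89 without it, by its brightest probe set, so that this signal was lower with tamoxifen in one setting and higher in the other. By that probe set the first value became -0.75 under spike-in scaling, below the 2-fold threshold. Probe set 210664_s_at gave -0.50 and 0.71. Probe set 210665_at did not share the opposite signs, with a log2 fold of at least 0.41 for Combo over Rom and 1.42 for Tam over Untreated, and 209676_at and 214378_at were below the floor on both the Combo and the Rom array. With the median over probe sets, Combo over Rom was at least 0.41. This repeats the 210665_at value, since that probe set was the median on the Combo array and the Rom median was below the floor. The departure of the Combo array from the sum of the 2 single-drug log2 folds was -1.96 for 213258_at and -1.21 for 210664_s_at. For a given probe set this departure equals the gap between the 2 romidepsin values and that between the 2 tamoxifen values. They are 1 quantity from the same 4 arrays, not separate observations. Among 11058 genes above the floor on all 4 arrays, the departure had a median of -0.04, a 5th percentile of -0.78 and a 95th percentile of 0.59, and 2.23% of the genes were at or below -1. TFPI was the fifth lowest of them; PLAU, at -0.97, had 278 genes at or below its value. PLAUR departed by 0.56 with 210845_s_at and by 0.00 with 214866_at, and SERPINE2 by -0.18. With 1 array per group, noise and an interaction of the drugs cannot be told apart.

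**Figure D3:**
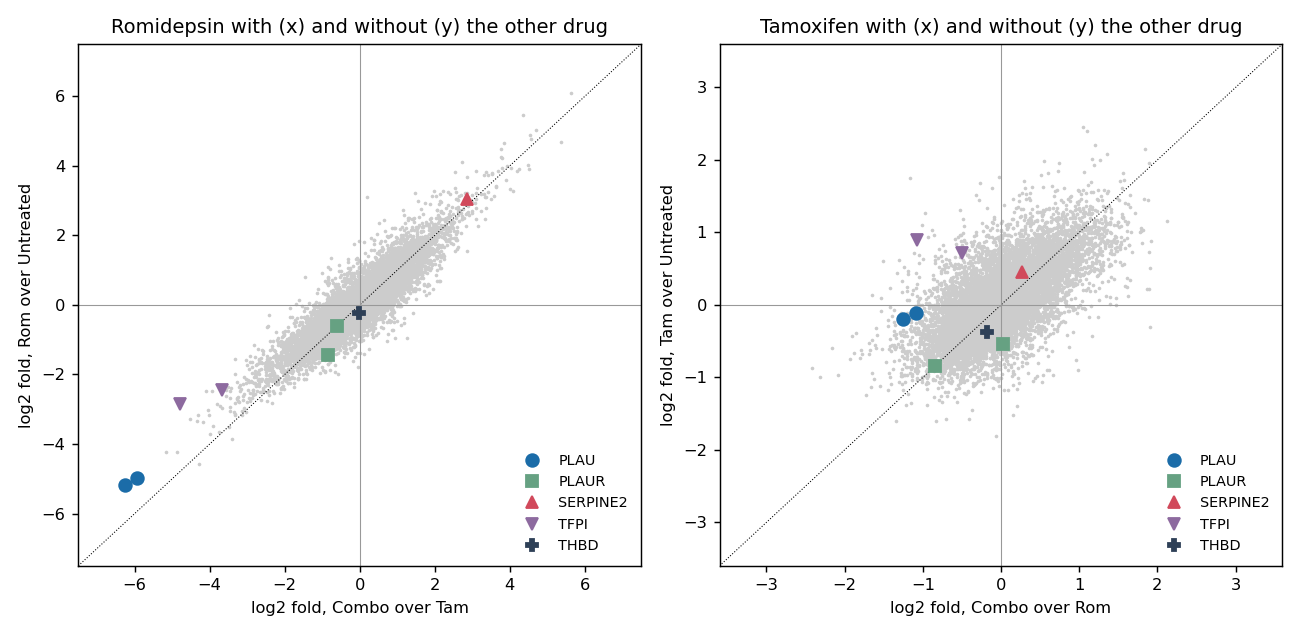
Log2 folds of romidepsin (left panel) and tamoxifen (right panel), with the other drug present on the x axis and absent on the y axis, for genes above the floor on all 4 arrays (grey) and for each probe set of the members above it (coloured). The dotted line marks equal folds, and the horizontal distance of a point from it is the departure, the same value in both panels. Both TFPI probe sets lie in the upper left of the right panel, at -1.07 and -0.50 on the x axis and 0.89 and 0.71 on the y axis.

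By the distance between log2 folds over untreated cells (Rom, Tam and Combo), the 6 genes whose pattern was nearest to that of PLAU among 12154 compared were MYOF (distance 1.29), FOSL1 (1.30), NUPR1 (2.31), HAS3 (2.41), EMP1 (2.42) and MALL (2.48). All were above the floor on all 4 arrays. MYOF had 380.0 in Combo, 661.5 in Rom and 11141 in Tam cells, against 12350 in untreated cells. FOSL1, which encodes an AP-1 subunit, had 158 in Combo, 211 in Rom and 3081 in Tam cells, against 5010.1 in untreated cells. NUPR1 differed from PLAU in the Tam array, with 7102 in Tam against 3581 in untreated cells. None of the 6 fell as far as PLAU with the combination: the folds below untreated cells lay between 16.2 and 32.5, against 67.0 for PLAU.

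**Figure D4:**
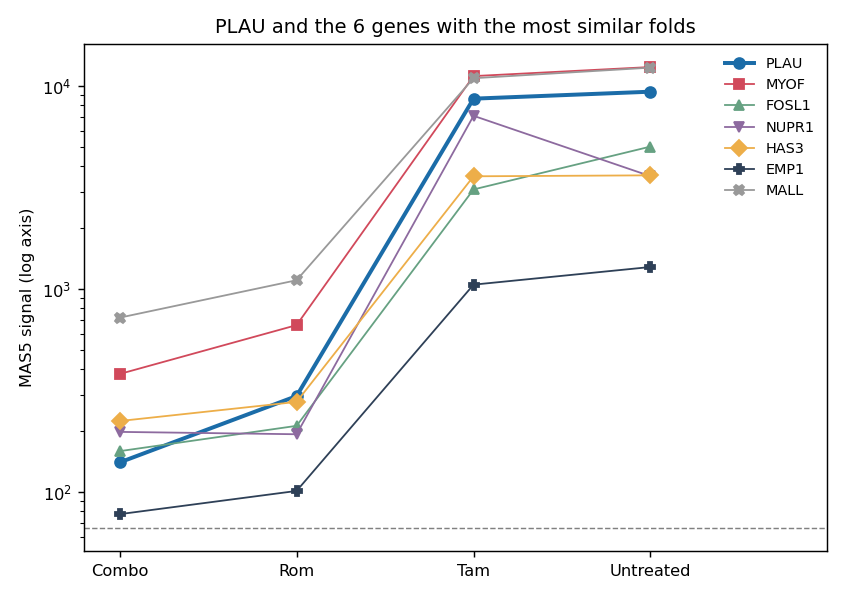
MAS5 signal (log axis) of PLAU (thick line) and the 6 genes with the nearest folds on the Combo, Rom, Tam and Untreated arrays, with the floor of 66.4 as a dashed line. All 7 genes are low on the 2 arrays with romidepsin and high on the other 2, and NUPR1 alone peaks on the Tam array.

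Of 17 other genes of the plasminogen system, 15 had a probe set of their own, and the others were not analysed here. For Combo over Untreated 9 were measured, of which 2 rose and 2 fell, where 19.8% of all genes rose and 14.4% fell. Their median log2 fold was 0.06, against 0.09 over all genes. SERPINI1 encodes neuroserpin, an inhibitor of tissue-type plasminogen activator. It had 8162 in Combo, 2477 in Rom and 367 in Tam cells, against 152 in untreated cells, and was 53.7-fold higher in Combo cells. VLDLR, a receptor that takes up complexes of proteases and serpins, was 2.72-fold higher in Combo cells (491 against 180 in untreated cells). S100A10, which forms the cell-surface plasminogen receptor with annexin A2, had 4754 in Combo, 12693 in Rom and 19372 in Tam cells, against 28740 in untreated cells. It was 6.05-fold lower in Combo and 2.26-fold lower in Rom cells. ENO1, a glycolytic enzyme that also binds plasminogen at the surface, was 2.24-fold lower in Combo cells. Plasminogen itself (PLG), singled out after its values were seen, was below the floor on all 4 arrays. With tamoxifen alone 1 of 9 rose, SERPINI1 at 2.42-fold, and 0 fell, where 3.70% of all genes rose and 1.07% fell; with romidepsin alone 2 of 11 rose and 1 fell, where 14.3% and 9.27% of all genes did.

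Of 20 genes of coagulation factors and their processing, all with a probe set, 12 were measured for Combo over Untreated. There 0 rose and 1 fell, where 19.8% and 14.4% of all genes did, and the median log2 fold was 0.17 against 0.09 over all genes. The gene that fell was F12, which encodes the factor XII zymogen, with 797 in Combo, 1490 in Rom and 2926 in Tam cells, against 4794 in untreated cells. Combo was 6.02-fold and Rom 3.22-fold lower than untreated cells. F8 (1.43-fold) and the secretory cargo receptor LMAN1 (1.86-fold) were higher in Combo than in untreated cells by less than the threshold. FGG was at least 1.77-fold higher in Combo cells, a lower bound that was not called and leaves the full size unknown. For Combo over Tam 13 were measured, of which GGCX, the vitamin K-dependent carboxylase, rose 2.08-fold and F12 fell 3.67-fold, where 14.8% and 11.8% of all genes rose and fell. Factor VII (F7), the partner of tissue factor, singled out after its values were seen, was between 69.0 and 71.7 in Rom, Tam and untreated cells and below the floor in Combo cells.

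Of 8 other anticoagulant genes 3 were measured, and 0 rose and 1 fell for Combo over Untreated, where 19.8% and 14.4% of all genes did. PROCR, the endothelial protein C receptor, had 448 in Combo, 769.9 in Rom and 1061 in Tam cells, against 1498 in untreated cells, 3.35-fold lower in Combo cells. PROS1, the cofactor protein S, was 1.99-fold higher in Tam than in untreated cells and 1.46-fold higher in Combo cells, and ANXA5 was 1.13-fold lower in Combo cells. Of the protease-activated receptors, F2R was measured, with 2700 in Combo against 3069 in untreated cells.

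Genes of transcription factors that can bind the AP-1 and ETS motifs were read beside the promoter letters. Of 9, 1 rose and 4 fell for Combo over Untreated, where 19.8% and 14.4% of all genes did, and the median log2 fold was -0.60 against 0.09 over all genes. FOS had 884 in Combo, 603 in Rom and 94.4 in Tam cells, with untreated cells below the floor, and was at least 13.3-fold higher in Combo cells. FOSL1 was 31.6-fold lower in Combo than in untreated cells, ETS2 13.5-fold lower and ETS1 3.0-fold lower. For Tam over Untreated 0 of 8 rose or fell, where 3.70% of all genes rose and 1.07% fell. What part these genes have in the PLAU, PLAUR or F3 values was not tested.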

How the data were processed

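Total RNA of Panc1 cells was labelled with biotin and hybridized to 4 arrays of 54675 probe sets, 62 of them controls. The deposited values are linear-scale intensities. The authors made these intensities with MAS5, according to the submitters' processing notes, and no version or scaling target was found. Scanner files were not used, so background and scan could not be varied. By GEO's platform annotation 41097 probe sets had 1 gene symbol and 1801 had several; 11721 had none and were left unnamed. Entrez IDs matched the RefSeq table of GRCh38.p14 for 41043 and changed 0 symbols. Columns of other samples numbered 0.

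The brightest probe set by mean log2 signal stood for a gene, signals below the floor were raised to it, and all 19775 genes were computed in 1 table. Named were the members, up to 4 genes of each list with the largest Combo over Untreated folds, FOSL1, and the 6 genes nearest to PLAU. The members and lists were chosen with earlier results of these data known. No test was run, as every group had 1 array. On simulated Rom and Untreated arrays of 19775 genes (log2 noise of SD 0.1), the 2-fold rule found 0 of 50 bright genes given a change of 1.5-fold, 49 of 50 given 2.5-fold and all 50 given 4-fold or 8-fold, and called 0 of 12082 unchanged genes. The simulated noise was chosen, not measured, and leaves out variation between cultures. It was small against the 2-fold threshold, so the lack of calls among unchanged genes followed from the setting. Only genes well above the floor were given a change, so dim genes such as PLAUR, THBD, F3 and PLAT were not covered. Nothing is read from the simulation about the calls made here. The alternatives were 3 scalings, 2 floors, 2 ways of choosing probe sets and 2 fold thresholds. Python 3.11.15, numpy 2.4.6, pandas 2.3.3 and matplotlib 3.10.9 were used.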

Additional observations from a re-analysis of the deposited data

Results flagged for a closer look

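By its brightest probe set, TFPI had tamoxifen values of opposite sign in the presence and absence of romidepsin. The log2 fold was -1.07 for Combo over Rom and 0.89 for Tam over Untreated, a difference of -1.96 between the 2 settings. This difference is the departure given above, not a further result. It was not tested, since each setting has 1 array per group. Under the 3 other scalings the difference lay between -2.06 and -1.91. Centring and spike-in scaling shift this difference by the same amount for every gene, so nothing is read from the narrow range. With spike-in scaling Combo over Rom was -0.75, below the 2-fold threshold. The second brightest probe set, 210664_s_at, gave -0.50 and 0.71, a difference of -1.21. Probe set 210665_at was higher with tamoxifen in both settings, by at least 0.41 for Combo over Rom and by 1.42 for Tam over Untreated. The median over probe sets gave the same bound of at least 0.41 for Combo over Rom. That is not a separate value, since 210665_at was the median on the Combo array.

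PLAUR had log2 folds of 0.03 for Combo over Rom and -0.54 for Tam over Untreated by probe set 210845_s_at, a difference of 0.56 that was not tested. This difference too is the departure given above. Probe set 214866_at gave -0.85 in both settings. The first value of PLAUR changed sign under other scalings, between -0.08 and 0.35.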

How the results depend on the processing

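For Rom over Untreated, Combo over Untreated and Combo over Tam the count of members called stayed within 1.5 times of the reported 5, 6 and 5 under all 3 scalings. Spike-in scaling gave 1 call (TFPI, higher) in place of 0 for Tam over Untreated, and 1 (F3, higher) in place of 2 for Combo over Rom. The floor at the 75th percentile left 1 to 4 members measured and gave 3 calls for Rom over Untreated, 3 for Combo over Untreated, 3 for Combo over Tam and 0 for Combo over Rom. Taking the median over probe sets gave 1 call for Combo over Rom and turned TFPI there to a log2 fold of 0.41; that median weighs probe sets below the floor equally with bright ones. Leaving out probe sets whose suffix marks possible matches to several transcripts, and with them PLAU and PLAT, there were 3 calls for Rom over Untreated, 3 for Combo over Tam and 1 for Combo over Rom. A 1.5-fold threshold gave 2 calls for Tam over Untreated and 4 for Combo over Rom, and a 3-fold threshold 0 for Combo over Rom. Of 223 single-gene values under alternatives, 179 moved by no more than the spread between probe sets, 43 by more and 1 reversed. Some of the 179 could not move. A lower floor leaves folds between signals above it unchanged, and a gene with 1 probe set keeps its value under the median over probe sets. The tally is therefore no measure of stability. The value that reversed was TFPI for Combo over Rom with that median. Only values called as deposited could count as reversed, and uncalled values also changed sign. With the median over probe sets, SERPINE2 turned from 0.45 to -0.78 for Tam over Untreated and from 0.27 to -0.46 for Combo over Rom. PLAUR turned from 0.03 to -0.85 for Combo over Rom. Tam over Untreated turned sign under spike-in scaling for PLAU (0.25) and THBD (0.23), neither called. Rises were 60.7% of all calls for Rom over Untreated and 57.9% for Combo over Untreated, against 47.4% and 41.2% with arrays centred on their medians and 72.9% for the second with spike-in scaling. For Combo over Rom they were 64.2%, against 46.4% centred and 94.0% with spike-in scaling. For Tam over Untreated they were 77.5%, against 48.0% centred, 63.5% quantile normalized and 98.3% with spike-in scaling. No paired analysis was possible because each group had 1 array. Signals near the floor limit PLAT, PLAUR, THBD, F3 and the low PLAU and TFPI values. For PLAUR the floor at the 75th percentile left log2 folds of -0.05 for Rom over Untreated and -0.05 for Combo over Untreated, neither called.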
